A study of Mus musculus with 4 samples.

Results

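The genes described here are 40 genes that act in S phase, G2 or mitosis, among them Mki67, Top2a, Cdk1 and its cyclins, the Aurora kinases and the Mcm2 to Mcm7 helicase subunits. They were listed by name and found by Entrez Gene identifier among 27179 identifiers in 4 count files. A gene is described when it had at least 10 counts in 2 or more libraries, which held for 39 of the 40. Melk, which encodes a kinase of dividing cells, had 8 and 8 counts in the libraries titled cuff and 16 and 6 in those titled sham, and fell below the minimum. Aurkb, just above it, had 24 and 34 counts against 6 and 13. The libraries held poly(A) RNA of lumbar cord (segments L4-6) from male C57BL/6J mice, 28 days after surgery on the sciatic nerve. In 2 libraries, titled cuff, a cuff had been placed around the nerve, which constricts it and is used to model lasting neuropathic pain. The other 2, titled sham, had a sham operation, and no other allele or agent is named for either group. The sources used here do not give the age of the mice, the side of the cord, or whether a library is 1 animal or a pool. The p-values therefore measure nothing beyond the spread of these libraries.

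Dividing cells copy their DNA in S phase and separate the copies in mitosis, and the genes for both steps are transcribed in waves. E2F factors drive the S phase wave through E2F elements. The G2 and M phase wave is kept off in resting cells, and switched on late in the cycle, by complexes that bind the CHR element (cell cycle genes homology region) beside boxes bound by the factor NF-Y. In the adult cord nearly all neurons have left the cycle, while oligodendrocyte precursors keep dividing, and microglia can divide after nerve injury. Bone marrow precursors divide rapidly.

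CHR and E2F elements in the promoters differed between the S phase and the G2 and M phase genes, and the NF-Y box differed less. The genes were listed by their known phase, so this describes the list and is no independent test of the waves. RefSeq promoter windows (GRCm38.p6, 250 bases before to 50 after a gene's start, any window of a gene counted) were found for 33 of the 39. The CHR element, searched as TTTGAA and TTCGAA on both strands, was in 17 of 21 G2 and M phase genes (81.0%), in 2 of 12 S phase genes (16.7%) and in 21.7% of all 27025 genes with a window. The NF-Y box, searched as CCAAT on both strands, was in 19 of 21, in 9 of 12 and in 41.1%. The E2F element, searched as TTTGGCGC and TTTCGCGC on both strands, was in 1 of 21, in 5 of 12 and in 0.929%. A CHR element and an NF-Y box were both present in 19 of the 33 genes (57.6%), against 8.61% of all genes with a window. Among the 12826 tested genes with a window, 16.5% held a CHR element, 42.4% an NF-Y box and 1.61% an E2F element. A CHR element and an NF-Y box were both in 6.78% of those tested genes. An E2F element and an NF-Y box can share bases, as they do in the Mcm7 window. Such a match describes the letters of a window and is not a measured binding site.

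**Figure D1:**
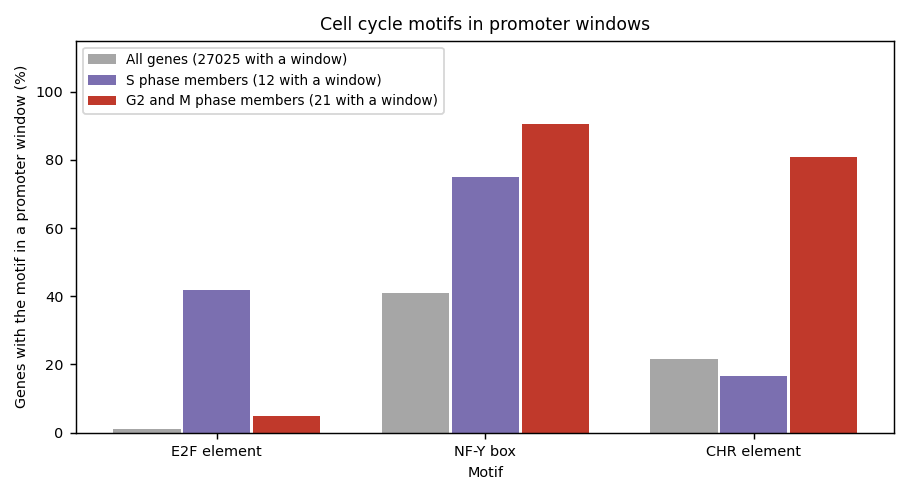
Share of genes (%, vertical axis) with each motif in a RefSeq promoter window, for all genes, the S phase genes and the G2 and M phase genes. The CHR element stands at 81.0% in the G2 and M phase genes against 16.7% and 21.7%, and the E2F element at 41.7% in the S phase genes against 0.929% of all genes.

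The windows of the 5 most abundant genes with an E2F element, or with a CHR element and an NF-Y box, are shown so that the elements can be seen in place. Mki67 and Racgap1 act in M phase and Mcm2, Mcm6 and Mcm7 in S phase. Capitals mark the E2F and CHR elements and NF-Y boxes on either strand. The windows are written 5′ to 3′ on the gene's strand, which is the minus strand for all 5. They lie at chr7:135716330-135716629 (Mki67), chr15:99651607-99651906 (Racgap1), chr1:128359656-128359955 (Mcm6), chr6:88898731-88899030 (Mcm2) and chr5:138171834-138172133 (Mcm7, the window of 2 that holds an E2F element).
Mki67: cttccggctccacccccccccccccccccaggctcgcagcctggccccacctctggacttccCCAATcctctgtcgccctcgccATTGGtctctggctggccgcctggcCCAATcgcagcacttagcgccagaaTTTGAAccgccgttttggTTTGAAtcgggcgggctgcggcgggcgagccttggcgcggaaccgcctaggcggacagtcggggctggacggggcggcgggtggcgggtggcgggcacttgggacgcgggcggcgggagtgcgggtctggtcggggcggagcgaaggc
Racgap1: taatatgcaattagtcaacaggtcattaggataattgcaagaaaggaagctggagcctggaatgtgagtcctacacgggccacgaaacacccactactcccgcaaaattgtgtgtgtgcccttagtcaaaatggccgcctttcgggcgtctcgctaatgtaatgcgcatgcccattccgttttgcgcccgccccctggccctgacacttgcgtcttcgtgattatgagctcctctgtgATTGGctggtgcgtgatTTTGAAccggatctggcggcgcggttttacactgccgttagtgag
Mcm6: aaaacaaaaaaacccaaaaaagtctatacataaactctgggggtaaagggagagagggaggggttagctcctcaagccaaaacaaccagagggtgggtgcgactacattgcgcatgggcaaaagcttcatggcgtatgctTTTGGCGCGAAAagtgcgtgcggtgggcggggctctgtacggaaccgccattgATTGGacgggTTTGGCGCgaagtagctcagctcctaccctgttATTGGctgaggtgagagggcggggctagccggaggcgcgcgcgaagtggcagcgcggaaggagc
Mcm2: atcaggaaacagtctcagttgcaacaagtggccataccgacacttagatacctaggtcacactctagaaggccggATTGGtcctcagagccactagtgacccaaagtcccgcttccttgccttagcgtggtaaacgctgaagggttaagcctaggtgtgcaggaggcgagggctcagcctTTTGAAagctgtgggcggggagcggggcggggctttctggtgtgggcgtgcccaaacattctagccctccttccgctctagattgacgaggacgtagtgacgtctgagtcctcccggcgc
Mcm7: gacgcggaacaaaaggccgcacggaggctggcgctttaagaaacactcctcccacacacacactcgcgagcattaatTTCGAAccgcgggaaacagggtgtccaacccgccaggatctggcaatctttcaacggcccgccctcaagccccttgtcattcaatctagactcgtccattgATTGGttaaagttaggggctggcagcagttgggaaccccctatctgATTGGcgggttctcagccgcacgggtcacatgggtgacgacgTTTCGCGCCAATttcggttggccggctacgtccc
In Mki67 a CHR element was found 2 times and an NF-Y box 3 times, with no E2F element. In Mcm6 an E2F element was matched 3 times, with no CHR element. The matches at bases -110 to -103 and -106 to -99 from the start lie on opposite strands and share bases, so their capitals run together. Mcm7 held all 3 kinds. Mcm2, although an S phase gene, held a CHR element and an NF-Y box and no E2F element.

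Counts summed to between 32936609 and 39461573 per library. For every library the file name and the sample title name opposite conditions. Groups follow the titles, so each difference is titled cuff minus titled sham and would change sign if the file names were right. Genes of spinal cord tissue were abundant in every library: the myelin gene Mbp had at least 586397 counts, the synaptic gene Snap25 at least 90148 and the lumbar Hox gene Hoxc10 at least 2195. Cuff replicate 2 stood apart through genes of other tissues. Scn10a, the sodium channel of pain-sensing ganglion neurons, had 213 counts there and 0 in the other 3 libraries. The list of 10 sensory ganglion genes that holds Scn10a differed less. It summed to 173 CPM (TMM-scaled counts per 1e+06) there, against 147, 141 and 139 in cuff replicate 1, sham replicate 1 and sham replicate 2. Of its genes 7 were tested and none was called. In the same order of libraries, 10 skeletal muscle genes summed to 739 CPM against 271, 231 and 160. In bulk tissue, more cells of a type and more RNA per cell cannot be told apart.

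The cell cycle genes were weakly expressed. Together the 40 genes made up 215 and 263 CPM in the libraries titled cuff and 220 and 218 in those titled sham. Per kilobase of the longest annotated transcript (RPKM, a level), Pcna, the sliding clamp of DNA replication and repair, averaged 29.9 over the 4 libraries and ran from 25.8 to 36.0. It was followed by Mcm7 at 5.88 (5.41 to 6.33), Rrm1 at 5.17 (4.45 to 5.52), Mcm4 at 5.02 (4.79 to 5.25) and Racgap1 at 4.70 (4.38 to 5.13). Among the 4 genes after Pcna, the ranges of neighbours in that order overlapped, while Mcm7 lay above the others in every library. Mcm2 at 1.91 and Aurka at 1.79 came next. Mki67, the usual marker of proliferating cells, averaged 0.714 RPKM and ran from 0.278 to 1.36. Melk, at 0.0871, was the lowest. The most abundant of these genes thus had roles in replication, apart from Racgap1, which acts in cytokinesis and regulates Rac GTPases.

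With edgeR's quasi-likelihood test and Benjamini-Hochberg adjustment over 16918 genes, none of the 39 reached an adjusted p under 0.05: 0 were called higher and 0 lower, where 1.15% of all genes were called higher and 2.96% lower. DESeq2 called 0 of the 39 in either direction (1.61% of all genes higher, 4.77% lower), as did limma-voom (0.201% and 0.668%). No adjusted p from DESeq2 was available for Aurkb, Bub1 and Ccnb1, so they could not be called there. With no filter on low counts 2 were called higher, Birc5 and Ube2c, against 2.07% of all genes. At an unadjusted p under 0.05 there were 9 genes with higher values in the libraries titled cuff (23.1%) and 0 with lower values, against 9.74% and 11.7% of all genes. The median log2 fold change was 0.46, beside 0.02 over all genes, and 30 of 39 (76.9%) were positive, against 52.1% of all genes. Non-overlapping CPM values were found in 19 genes with higher values and in 2 with lower values, where 28.2% and 25.9% of all genes did so. The 2 waves differed in these counts. The 13 S phase genes had a median log2 fold change of 0.0037 with 7 positive, and the 26 G2 and M phase genes tested had a median of 0.67 with 23 positive. No test of the 2 medians was run.

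Summed over the 13 S phase genes, the level was 134 and 147 CPM in the libraries titled cuff and 152 and 143 in those titled sham. The groups overlapped. Summed over the 27 G2 and M phase genes it was 80.8 and 116 CPM in the libraries titled cuff, and 67.8 and 75.8 in those titled sham. The groups did not overlap there, but cuff replicate 1 lay nearer to sham replicate 2 than to cuff replicate 2.

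**Figure D2:**
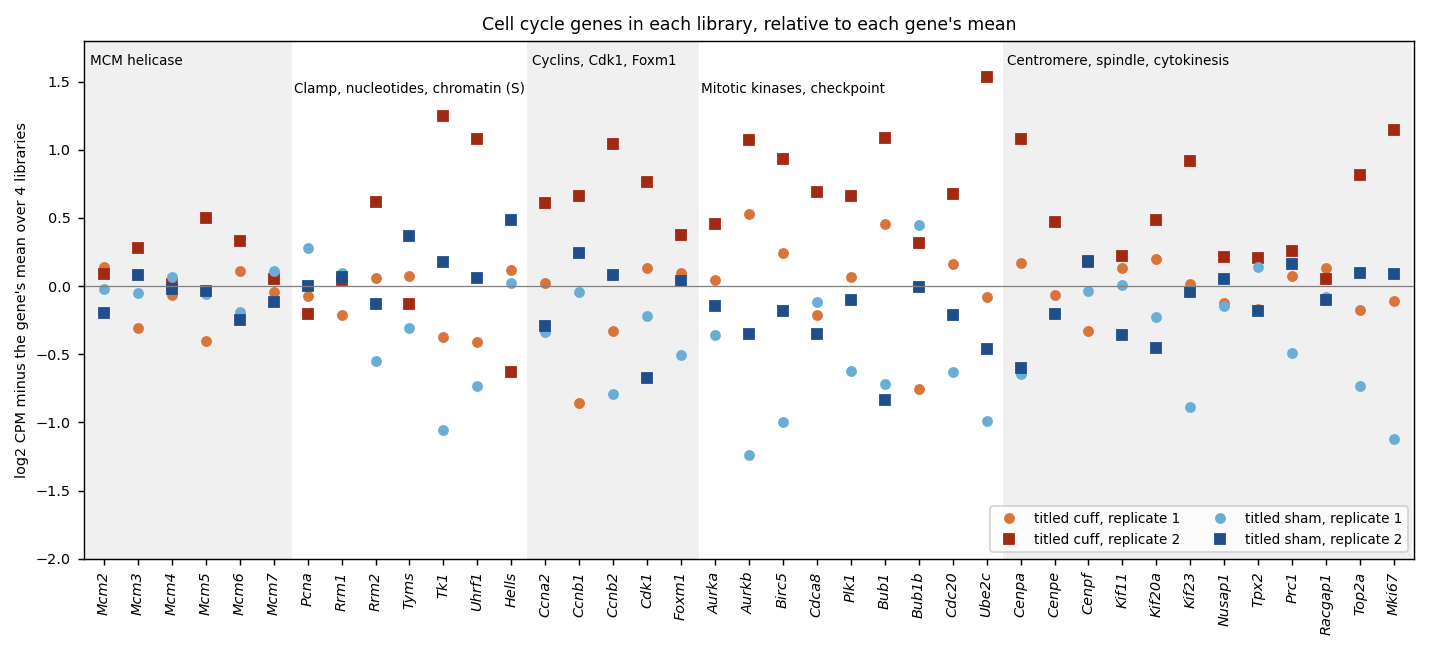
Log2 CPM of each of the 39 tested genes minus its mean over the 4 libraries (vertical axis), 1 point per library, genes grouped by role. Cuff replicate 2 (dark red squares) is the highest library for 23 of 26 G2 and M phase genes, and of 3 of the 6 Mcm genes.

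The Mcm2 to Mcm7 proteins form the ring-shaped helicase that is loaded at origins before S phase. None of the 6 genes was called, and their log2 fold changes ran from -0.05 to 0.45. Mcm4 was at 17.2 and 18.2 CPM in the libraries titled cuff and at 18.9 and 17.8 in those titled sham, and Mcm7 at 16.8 and 18 against 18.7 and 16.0. The groups overlapped for both. The 95% interval of the log2 difference ran from -0.37 to 0.28 for Mcm4 and from -0.33 to 0.34 for Mcm7, the narrowest of the 6. Mcm6 had the largest difference of the 6. It was at 7.18 and 8.35 CPM against 5.81 and 5.60, groups that did not overlap, with a log2 fold change of 0.45 ± 0.22 (SE, n = 2 against 2, adjusted p = 0.252, edgeR quasi-likelihood test). Mcm2 was at 7.32 and 7.06 CPM against 6.54 and 5.78 (0.22 ± 0.22). Mcm3 and Mcm5 were at most 6.27 CPM in any library, with overlapping groups.

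The other S phase genes hold the clamp, the enzymes that supply nucleotides and factors of newly copied chromatin. Pcna was at 42.8 and 39.1 CPM in the libraries titled cuff and at 54.7 and 45.0 in those titled sham. It had lower values in both libraries titled cuff, with a log2 fold change of -0.28 ± 0.14 (adjusted p = 0.246, edgeR) and an interval from -0.58 to 0.01. Ribonucleotide reductase, which makes deoxynucleotides, has a large subunit, Rrm1, and a small subunit, Rrm2, that accumulates in S phase. Rrm1 was at 24.3 and 29.1 CPM against 30.2 and 29.5, a log2 fold change of -0.16 ± 0.14. Rrm2 was at 3.02 and 4.45 CPM against 1.96 and 2.64, a log2 fold change of 0.70 ± 0.33 (adjusted p = 0.225, edgeR). The subunits thus had log2 fold changes of opposite sign, neither of which passed the test, and with the length and GC correction Rrm1 was positive too (0.11).

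Tk1, the thymidine kinase, was at 0.832 and 2.67 CPM against 0.497 and 1.24. Uhrf1, which brings the maintenance DNA methyltransferase to copied DNA, was at 1.39 and 3.98 CPM against 1.10 and 1.94. Both had overlapping groups, in the order cuff replicate 2, sham replicate 2, cuff replicate 1 and sham replicate 1. Their log2 fold changes were 1.00 ± 0.61 for Tk1 and 0.82 ± 0.50 for Uhrf1, and without cuff replicate 2 they were -0.07 and -0.13. Hells, a chromatin remodeller needed for DNA methylation, ran the other way. It was at 4.02 and 2.37 CPM against 3.77 and 5.21, lowest in cuff replicate 2, with a log2 fold change of -0.49 ± 0.31 (adjusted p = 0.39, edgeR). With the length and GC correction the log2 fold change of Hells was -0.093. Tyms, the thymidylate synthase, lay between 2.12 and 3.42 CPM with overlapping groups.

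Cyclins A and B activate Cdk1 to bring cells into mitosis, and Foxm1 is a transcription factor of the G2 and M phase genes. Cdk1 (chromosome 10, 69335146 to 69352912) was at 2.22 and 3.46 CPM in the libraries titled cuff and at 1.73 and 1.24 in those titled sham. Its groups did not overlap, and its log2 fold change was 0.93 ± 0.37 (adjusted p = 0.157, edgeR). Ccna2 was at 3.36 and 5.07 CPM against 2.62 and 2.69, a log2 fold change of 0.66 ± 0.31 (adjusted p = 0.219, edgeR). Foxm1 was at 2.14 and 2.61 CPM against 1.39 and 2.05 (0.46 ± 0.37). The groups did not overlap for either gene. The B cyclins had overlapping groups. Ccnb2 was at 0.887 and 2.37 CPM against 0.628 and 1.19, and Ccnb1 at 0.333 and 1.05 against 0.628 and 0.777. Ccnb1 had 12 and 36 counts against 24 and 30, and its interval from -1.28 to 1.23 shows how little these counts say of it.

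Of the 9 genes of the mitotic kinases, the spindle checkpoint and the ubiquitin ligase, 8 had positive log2 fold changes and 7 had groups that did not overlap, all with higher values in the libraries titled cuff, where 52.1% of all genes were positive and 28.2% had higher values with no overlap. None was called. Their median log2 fold change was 0.88, the highest of the 5 role groups. Aurkb, Birc5 (survivin) and Cdca8 (borealin) are partners in the chromosomal passenger complex, which corrects the attachment of chromosomes to the spindle. Birc5 (chromosome 11, 117849237 to 117855743) had the smallest adjusted p of all 39 genes. It was at 2.66 and 4.34 CPM against 1.10 and 1.97, a log2 fold change of 1.19 ± 0.38 (adjusted p = 0.0808, edgeR). Aurkb was at 0.665 and 0.996 CPM against 0.157 and 0.337, a log2 fold change of 1.73 ± 0.64 (adjusted p = 0.124, edgeR). Cdca8 was at 0.804 and 1.55 CPM against 0.863 and 0.725, with overlapping groups.

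Bub1 and Bub1b act together in the spindle checkpoint, yet their values ran in different directions. Bub1 was at 0.776 and 1.23 CPM against 0.314 and 0.285, from 28 and 42 counts against 12 and 11, with a log2 fold change of 1.73 ± 0.59 (adjusted p = 0.0954, edgeR). Bub1b was at 3.11 and 6.56 CPM against 7.22 and 5.23, with overlapping groups and a log2 fold change of -0.37 ± 0.34 (adjusted p = 0.574, edgeR). Without cuff replicate 1 the value of Bub1b was 0.02. Ube2c and Cdc20 work with the anaphase promoting complex, the ubiquitin ligase that ends mitosis. Ube2c was at 1.03 and 3.25 CPM against 0.523 and 0.777, a log2 fold change of 1.71 ± 0.54 (adjusted p = 0.0865, edgeR). Its cuff replicate 2 lay far above the other 3 libraries, and its log2 fold change was 0.65 without that library. Cdc20 was at 1.36 and 1.96 CPM against 0.758 and 1.04, and its groups did not overlap. Plk1, a kinase of mitotic entry and exit, was at 2.14 and 3.25 CPM against 1.31 and 1.89, and Aurka, the centrosomal Aurora kinase, at 3.44 and 4.60 against 2.59 and 3.01. Neither had overlapping groups.

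**Figure D3:**
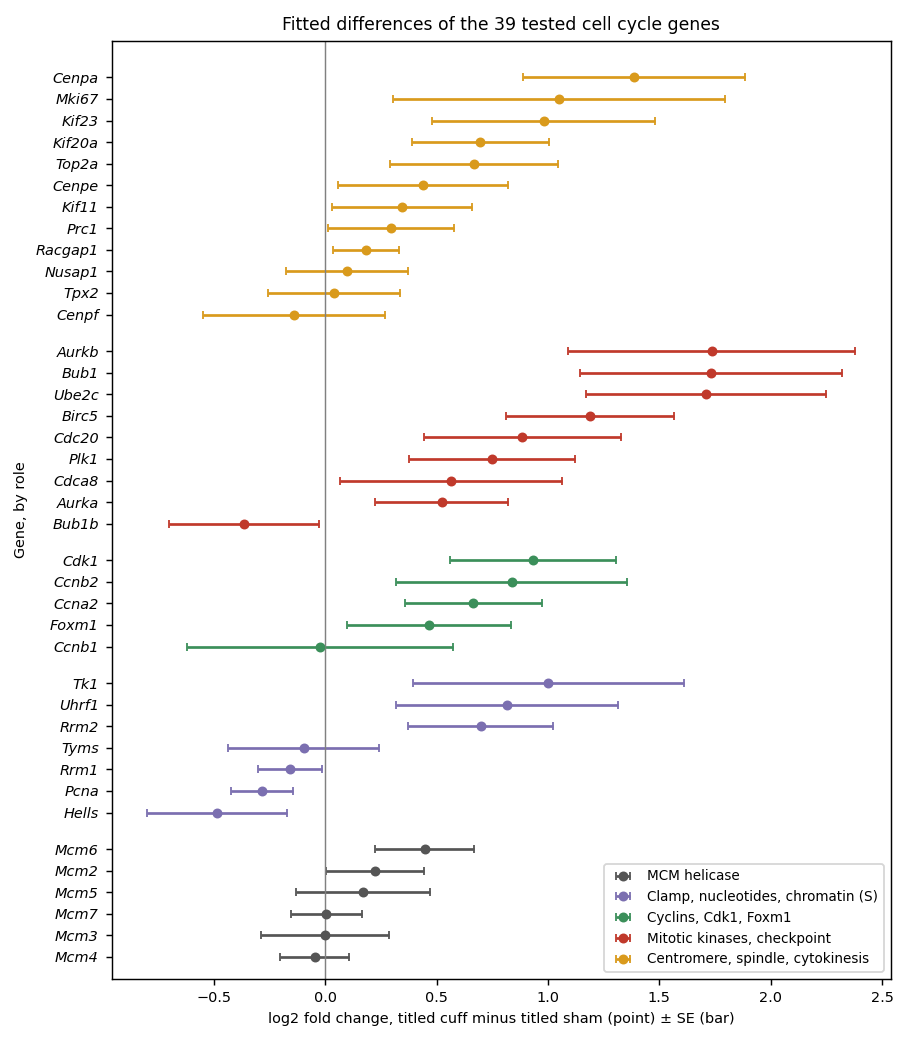
Fitted log2 fold change, titled cuff minus titled sham (horizontal axis, points), with its SE (bars) for each of the 39 tested genes, coloured and grouped by role. The mitotic kinase and checkpoint genes reach 1.73 and the Mcm genes stay between -0.05 and 0.45, and no gene passed an adjusted p of 0.05.

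The 12 genes of the centromere, spindle and cytokinesis held 11 positive log2 fold changes, with a median of 0.39, and none was called. Mki67 (chromosome 7, 135689784 to 135716450), whose protein coats mitotic chromosomes, was at 5.71 and 13.7 CPM in the libraries titled cuff and at 2.80 and 6.55 in those titled sham. Sham replicate 2 was above cuff replicate 1, so the groups overlapped. Its log2 fold change was 1.05 ± 0.75 (adjusted p = 0.534, edgeR), and 0.29 without cuff replicate 2. With the replicate number as a block, Mki67 was called higher (adjusted p = 0.0282, edgeR), as were 1.45% of all genes. The labels do not state that the numbers pair the libraries. Top2a, the topoisomerase that untangles sister chromatids, had the same order of libraries, at 3.88 and 7.74 CPM against 2.62 and 4.69 (0.67 ± 0.38).

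Cenpa, the histone that marks centromeres, was at 1.05 and 2.02 CPM against 0.575 and 0.596, a log2 fold change of 1.39 ± 0.50 (adjusted p = 0.114, edgeR). Its groups did not overlap. Kif20a, a motor of cytokinesis, was at 3.47 and 4.22 CPM against 2.56 and 2.18, a log2 fold change of 0.70 ± 0.31 (adjusted p = 0.198, edgeR). Kif23 and Racgap1 form the centralspindlin complex that guides the cleavage furrow. Kif23 was at 1.03 and 1.96 CPM against 0.523 and 0.984, while the more abundant Racgap1 was at 23.0 and 21.7 CPM against 19.8 and 19.6 (0.18 ± 0.15, adjusted p = 0.507, edgeR). Kif11, the motor that pushes spindle poles apart, was at 3.11 and 3.31 CPM against 2.85 and 2.20 (0.34 ± 0.31), and Cenpe, a kinetochore motor, was at 1.72 and 2.52 CPM against 1.57 and 1.55. Prc1, which bundles microtubules of the midzone, was at 4.69 and 5.33 CPM against 3.16 and 5.0. The spindle proteins Nusap1 and Tpx2 and the kinetochore protein Cenpf had log2 fold changes of 0.10, 0.04 and -0.14, each with overlapping groups.

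Libraries of a group differed among themselves. Cuff replicate 2 was the highest of the 4 libraries in 29 of 39 genes (23 of 26 G2 and M phase genes), where it was the highest in 34.5% of all genes. The order of Mki67, with cuff replicate 2 above sham replicate 2, cuff replicate 1 and sham replicate 1, was held by 7 of the 39 genes (Tk1, Uhrf1, Ccnb2, Nusap1, Prc1, Top2a and Mki67), against 5.88% of all genes. More of them, 11 of the 39, had the order cuff replicate 2, cuff replicate 1, sham replicate 2 and sham replicate 1. Those 11 are among the 19 genes (48.7% of the 39) with higher values and no overlap, a pattern held by 28.2% of all genes. The share of all genes with the exact order of the 11 is not given here. Without cuff replicate 2 the median log2 fold change of the genes was 0.17, with 24 of 40 positive and 0 called, where 0.905% of all genes were called higher. Without cuff replicate 1, 8 were called higher (Cdk1, Top2a, Tk1, Birc5, Uhrf1, Ube2c, Cenpa and Mki67), where 4.1% of all genes were called higher. That fit sets 1 library against 2 and assumes that the lone library varies like the others, so the 8 calls describe cuff replicate 2.

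Several lists of markers of other cells also had their highest sum in cuff replicate 2. The order of the other 3 libraries varied among the lists. For the granulocyte precursor and endothelial genes it was that of the G2 and M phase sum. Of 13 granulocyte precursor genes 12 were tested, and 2 rose in the libraries titled cuff, Mpo and Fcnb, where 1.15% of all genes were called higher and 2.96% lower. The 13 genes summed to 208 and 505 CPM in the libraries titled cuff and to 63.7 and 134 in those titled sham, and Ms4a3 had 8 and 38 counts against 0 and 0. Erythroid precursor genes, 13 of which were tested and none called, summed to 291 and 514 CPM against 309 and 347. B lymphoid precursor genes, 6 of which were tested and none called, summed to 20.1 and 28.5 CPM against 22.1 and 31.1. Their sum was highest in sham replicate 2, while 4 of the 6 were highest in cuff replicate 2 (34.5% of all genes were). Leptomeningeal fibroblast genes, none of 10 called, summed to 341 and 752 CPM against 189 and 395, in the library order of Mki67. Skeletal muscle genes had their highest sum in cuff replicate 2 as well. Of 9 bone and osteoclast genes 4 rose, with sums of 56.3 and 63.0 CPM against 39 and 36.2. Of 11 endothelial genes 7 rose, with sums of 170 and 189 CPM against 117 and 122. The part of these cells in the cell cycle values was not tested.

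Markers of the glia that can divide in the cord were summed in the same way. The 10 oligodendrocyte precursor genes, none called, summed to 390 and 340 CPM in the libraries titled cuff and to 387 and 429 in those titled sham. The 10 microglial genes, none called, summed to 346 and 285 CPM against 369 and 351. Both sums were lowest in cuff replicate 2. Among the oligodendrocyte precursor genes, 4 had higher and 4 lower values without overlap (28.2% and 25.9% of all genes). Cuff replicate 2 was the highest library for 3 of them and for 0 microglial genes, against 34.5% of all genes. The part of these glia in the cell cycle values was not tested.

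**Figure D4:**
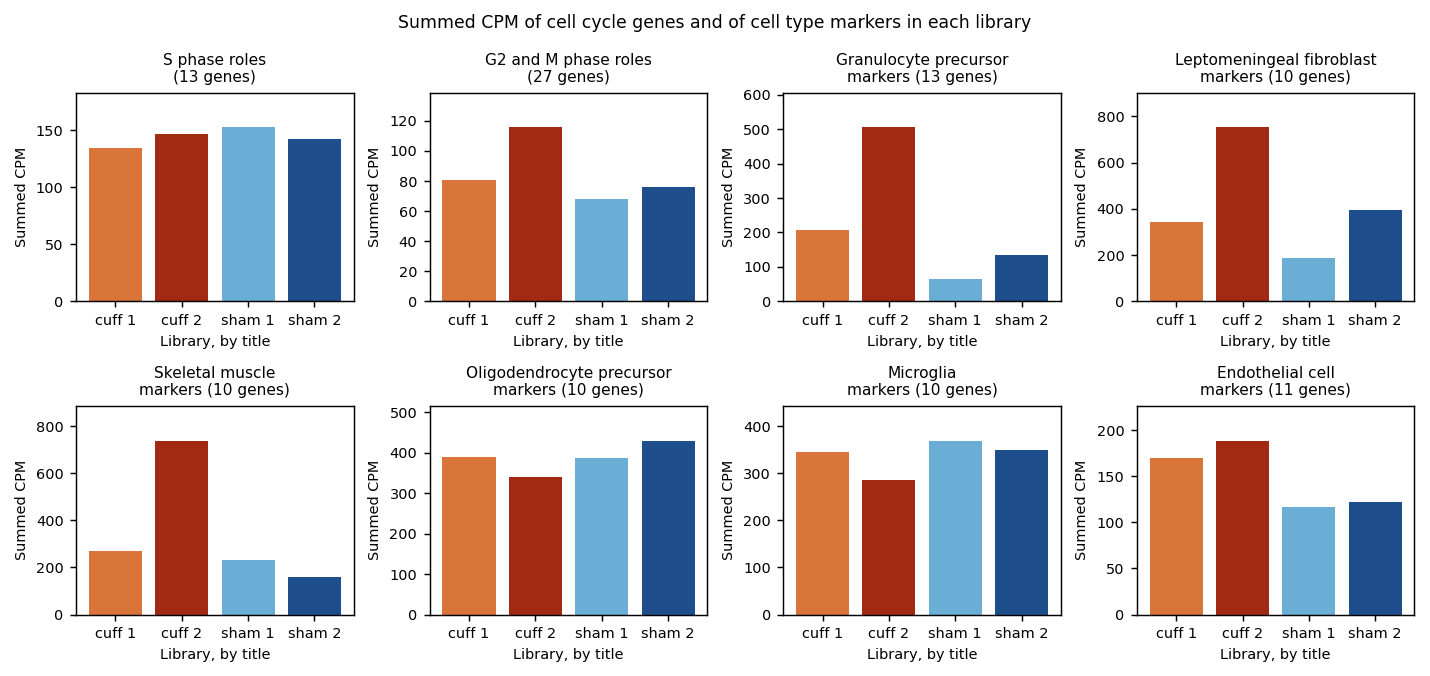
Summed CPM (vertical axes, each from 0) of the S phase genes, the G2 and M phase genes and 6 marker lists in each library. In cuff replicate 2 the G2 and M phase sum (116 CPM) and the granulocyte precursor sum (505 CPM) are the highest of the 4 libraries, and the oligodendrocyte precursor (340 CPM) and microglial (285 CPM) sums are the lowest.

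Other genes of the cell cycle were read beside these. In a list of G1 cyclins and kinases that also held Cdc25b, 1 of 12 tested genes rose and 0 fell, against 1.15% and 2.96% of all genes. The gene that rose was Cdc25b, the phosphatase that activates Cdk1, and so not itself a G1 cyclin or kinase. Cdc25b was at 14.9 and 20.2 CPM in the libraries titled cuff and 8.52 and 11.7 in those titled sham, a log2 fold change of 0.80 ± 0.20 (adjusted p = 0.0358, edgeR). It was not called without cuff replicate 2 (0.56, adjusted p = 0.523), without either library titled sham or after correction for length and GC content (0.63, adjusted p = 0.141). Cdk6, a G1 kinase, had 0 and 2 counts against 13 and 20 (adjusted p = 0.0597). In the other 5 lists 0 of 113 tested genes were called. At unadjusted p under 0.05 there were 7 of the 113 with higher and 7 with lower values, against 9.74% and 11.7% of all genes. DESeq2 called E2f2 higher and Cdc27 and Anln lower among the 113, against 1.61% and 4.77% of all genes. Among 35 replication genes, with a median log2 fold change of 0.10, Pola1, a subunit of DNA polymerase alpha, was at -0.70 ± 0.23 and Dbf4, the activator of the Cdc7 kinase, at 1.17 ± 0.40. Among 38 mitosis genes, with a median of 0.26, the chromatin protein gene Hmgb2 was at 0.90 ± 0.30. Anln (anillin), which myelinating cells express too, was at -0.61 ± 0.19, from 174 and 121 CPM against 256 and 194.

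The regulators lay close to the median of all genes. The median log2 fold change was -0.04 over 16 E2F and MuvB genes, 0.11 over 9 inhibitors and pocket proteins and 0.05 over 15 genes of the anaphase promoting complex. E2f2, an activating E2F, was at 3.27 and 7.47 CPM against 1.46 and 2.44 (1.46 ± 0.41, adjusted p = 0.0754, edgeR), and E2f8, a repressing E2F, at 0.693 and 1.76 against 0.523 and 0.648. The CDK inhibitor gene Cdkn1c was at 29.3 and 24.3 CPM against 20.7 and 17.6 (0.49 ± 0.16, adjusted p = 0.0835, edgeR). Cdkn1a, which encodes p21, was at 26.4 and 39.7 CPM against 55.5 and 40.7 (-0.54 ± 0.22). Cdc27, a subunit of the complex, was at 59.1 and 51.3 CPM against 74.5 and 75.4 (-0.44 ± 0.13, adjusted p = 0.067, edgeR), and Fzr1, its activator in G1, at 60.2 and 68.9 against 45.2 and 54.1 (0.38 ± 0.14). With the length and GC correction the log2 fold change of Cdc27 was -0.098.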

How the data were processed

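Strand-specific poly(A) libraries were sequenced as read pairs of 150 bases, per the labels' protocols. The submitters' processing notes name Trimmomatic 0.30, HISAT2 2.0.1, featureCounts and mm10. The sources used here give neither the annotation nor how strand was set in counting, so genes that overlap are uncertain. Raw, unnormalized counts for each Entrez identifier were deposited. The file of cuff replicate 2 is listed under another unit because its deposited lines join identifier and count by a literal backslash and letter, and it was split there into counts. Symbols came from a RefSeq table of GRCm38.p6, the assembly of mm10, for 25275 identifiers and from GENCODE M21 for 18, and 1886 had none. Coordinates are 1-based.

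The 4 samples were grouped by title. No 2 of the libraries agreed within sampling noise (smallest chi-square 25.4 per degree of freedom, 6 pairs). Genes passing filterByExpr (16918) were scaled by TMM and tested with edgeR 4.0.16 (quasi-likelihood, robust, two-sided, group only) in R 4.3.3, and an adjusted p under 0.05 is a call. SE is the fitted difference over the root of its F statistic. RPKM uses the longest GENCODE M21 transcript. With 2 libraries a group, no permutation of labels reaches 0.05, so the tests rest on the spread shared across genes. Alternatives were RLE and upper quartile scaling, DESeq2 1.42.0, limma-voom 3.58.1, 2 other filters, a block for replicate number, leaving out each library, and offsets for transcript length and GC content (local regression, span 0.3). The steps were tested on simulated data.

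The members and lists were chosen with earlier results of these data known. The rule for named genes took all described members, with full statistics for the 3 of highest mean CPM in each role and the 4 largest differences, up to 2 genes of smallest p in each other list and called genes. Further statistics were added after values were seen.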

Additional observations from a re-analysis of the deposited data

How the results depend on the processing

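All 39 tested genes stayed uncalled under RLE and upper quartile scaling, DESeq2, limma-voom, a mean count of at least 10 and the length and GC correction alone. Aurkb, Bub1 and Ccnb1 had no adjusted p from DESeq2. With no filter 2 were called higher. Leaving out 1 library gave 0 to 8 calls and a median log2 fold change of 0.17 to 0.60, lowest without cuff replicate 2 and highest without cuff replicate 1. Over all genes the 696 calls became 1079 with DESeq2, 147 with limma-voom, 1292 with no filter, 56 with the length and GC correction, and 0 to 1928 with 1 library left out. The 1 call in the other cell cycle lists became 4 with DESeq2, 0 with limma-voom, 5 with no filter, 0 with the length and GC correction and 0 to 8 with 1 library left out. The causes were not tested.

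The replicate numbers do not show that libraries were paired (correlation of same-numbered deviations 0.116). With the number as a block, 1 of the 39 genes, Mki67, was called higher (adjusted p = 0.0282, 1.45% of all genes were called higher), also with the length and GC correction added, and the other lists had 3 calls in both fits.

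The following genes changed sign, and none was called in a fit where its sign changed. Mcm3 was at 0.029 with upper quartile scaling and 0.00079 with a mean count of at least 10, Mcm7 at -0.012 with RLE scaling and DESeq2, and Ccnb1 at 0.0085 with upper quartile scaling. With the length and GC correction Mcm4 was at 0.062, Mcm7 at -0.14, Rrm1 at 0.11, Ccnb1 at 0.069 and Cenpf at 0.29. With that correction and the block, Mcm4 was at 0.060, Mcm7 at -0.13, Rrm1 at 0.10, Tyms at 0.029 and Cenpf at 0.27. With 1 library left out the log2 fold change ran from -0.33 to 0.22 for Mcm3, -0.36 to 0.50 for Mcm5, -0.11 to 0.10 for Mcm7, -0.42 to 0.28 for Tyms, -0.067 to 1.8 for Tk1, -0.13 to 1.34 for Uhrf1, -1.07 to 0.53 for Ccnb1, -0.038 to 1.37 for Ccnb2, -1.0 to 0.023 for Bub1b, -0.42 to 0.047 for Cenpf, -0.082 to 0.21 for Nusap1, -0.16 to 0.19 for Tpx2 and -0.016 to 0.66 for Prc1. SE of the 39 genes ran from 0.14 to 0.75 (log2). Aurkb, with 6 to 34 counts, and Ccnb1, with 12 to 36, were among the least deeply counted.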
